A study of Homo sapiens with 24 samples.

Results

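The comparison described here sets S5P against S2P RNA polymerase II (RNA Pol II) in U2OS cells that were not irradiated. U2OS is a human osteosarcoma cell line, and all libraries come from this 1 line. The comparison uses the nonirradiated runs that the sample titles assign to S5P or S2P, 8 of the 24 sequencing runs of the series. The 2 sequencing batches of each replicate number were added together, which gave 2 S5P and 2 S2P libraries, 4 of 12 libraries in all. The other libraries are S5P, S2P and Y1P (tyrosine 1 phosphorylated) RNA Pol II from cells given 10 Gy of ionizing radiation, and Y1P from nonirradiated cells. The labels and the study's methods give different times after irradiation, so the time is not stated here. All genes of the gene-body table were considered.

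RNA Pol II carries a long C-terminal domain (CTD) of heptad repeats, and its phosphorylation changes as the enzyme moves along a gene. Serine 5 phosphorylation is placed early, by the CDK7 kinase of TFIIH, and goes with initiation, capping and the promoter-proximal part of genes. Serine 2 phosphorylation is placed by CDK9, CDK12 and CDK13, builds up towards the 3′ end and goes with elongation, cleavage and termination. mNET-seq digests chromatin with a nuclease, precipitates RNA Pol II with an antibody to 1 phosphorylated form and sequences the nascent RNA it holds. For its S2P results on antisense transcripts upstream of promoters, the study names overlap of the precipitated forms and cross-specificity of antibodies as possible. How far the S5P and S2P libraries overlap in this way was not tested. The table counts reads on the annotated strand of each gene, leaving out the bases next to the start site, so the promoter-proximal peak itself is not in these counts. Each library was scaled to its own total, so only the distribution of reads over genes was compared, not the amount of RNA Pol II. Per the study's methods, 3′ ends left by splicing were taken out for its gene plots, whereas differential expression used full-length reads. The counts may therefore hold RNA of splicing intermediates besides nascent ends. The part of such reads in the results below was not tested.

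The S5P libraries held 17082474 and 18948842 counts and the S2P libraries 22128409 and 20864315 counts. Between batches, runs of the same replicate were close to sampling noise (chi-square over degrees of freedom 1.06 to 1.1), whereas replicates 1 and 2 of an antibody were not (16.97 to 29.9). The labels do not say that the replicates came from separate cultures, so the p-values reflect the spread between libraries, which may be technical. The fit took this spread from all 12 libraries, irradiated and Y1P ones included. For replicates 1 and 2 of nonirradiated Y1P, the chi-square over degrees of freedom was 61.3 in batch 1 and 70.2 in batch 2. The study's text speaks of biological replicates and its methods of technical ones, without tying either to the replicate numbers used here. Genes that host snoRNAs held 14.65% and 20.8% of the counts in S5P replicates 1 and 2, against 12.55% and 19.04% in S2P replicates 1 and 2, which is higher in replicate 2 of both antibodies. RUNX2, the master regulator of osteoblasts, had 676 and 500.3 CPM, counts scaled to a common library total, in S5P libraries and 694 and 478 CPM in S2P libraries. BGLAP, the gene of osteocalcin made by mature osteoblasts, had no count in any of the 4. The 14 markers of other lineages summed to 29.8 and 26.2 CPM in S5P libraries, against 23.6 and 23.8 CPM in S2P libraries, with a median log2FC (log2 fold change, S5P over S2P) of 0.34 over the 8 that could be tested.

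The differences between S5P and S2P were small, and in protein-coding genes they were ordered by exon number. Among 21246 genes tested, no gene passed the threshold of adjusted p under 0.05 and an absolute log2FC above 1 in edgeR's quasi-likelihood test, and none passed at any fold (0% in both directions). At any fold 17 genes were called higher and 21 lower with relative log expression factors, 22 and 2 with upper quartile factors, and 0 and 0 when libraries were scaled by totals. The lowest adjusted p was 0.0534, shared by 41 genes. At an unadjusted p under 0.05, called nominal from here on, 1835 genes were higher in S5P (8.64% of those tested) and 2034 were lower (9.57%). DESeq2 on the same libraries called 0 genes at this fold, and 50 higher and 568 lower genes at any fold. With nonirradiated libraries alone in the fit, edgeR called 151 higher and 6 lower genes above this fold, and 693 higher and 780 lower at any fold. DESeq2 with the sequencing runs as 4 replicates called 190 higher and 9 lower above this fold, and 1030 higher and 2293 lower at any fold. Without S2P replicate 2 edgeR called 17 higher genes above this fold, and without S5P replicate 2 it called 6. The split of nominal genes depended on the scaling: 47.4% of them were higher with TMM factors, 39.5% with relative log expression factors, 72.5% after upper quartile scaling and 76.2% after scaling by totals, where the median log2FC of all genes was 0.02, -0.01, 0.09 and 0.09 in the same order of scalings.

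Nominal genes are no calls, and the counts below describe how the groups of genes lie against the shares of all genes given above. The gene lists and the classes were chosen with earlier results of these data known. The median log2FC of all genes tested was 0.02.

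Exon number, counted in the Ensembl canonical transcript of each gene, gave a clear order in protein-coding genes. Among 11318 protein-coding genes with a mean of at least 50 counts, the 124 genes of 1 exon had a median log2FC of 0.31, with 51 nominally higher and 2 lower. Of these 124 genes, 29 are on the list of replication-dependent histone genes described below. The other 95 had a median of 0.27, with 31 higher and 2 lower. The 349 genes of 2 exons had a median of 0.17, with 77 higher and 3 lower. The median was 0.06 for 3 to 5 exons and -0.04 for 6 to 10 exons. It was -0.11 for 11 to 20 exons, where 57 genes were nominally higher and 717 lower of 3559. Genes of 21 to 40 exons had a median of -0.18, with 34 higher and 684 lower of 1578. The 279 genes of over 40 exons had a median of -0.22, with 5 higher and 152 lower.

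Both pairs of libraries gave this order. In pair 1, S5P replicate 1 against S2P replicate 1, the median was 0.40 for 1 exon and -0.28 for over 40 exons. In pair 2 it was 0.23 for 1 exon and -0.15 for over 40 exons. Across the 11318 genes the Spearman rho of log2FC with exon number was -0.48 (-0.46 in pair 1 and -0.37 in pair 2). Genes share libraries and are not independent replicates, so this is a description with no p. Exon number goes with gene length and with the number of counts, and with both held fixed by ranks the rho was -0.43.

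**Figure D1:**
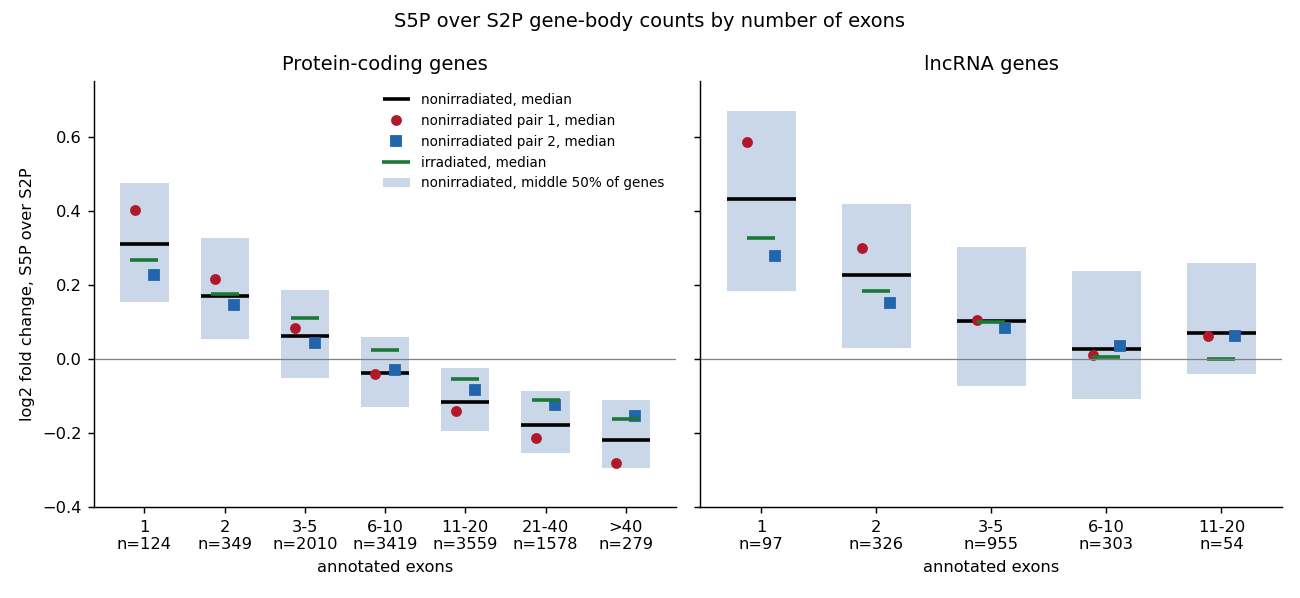
Median log2FC of S5P over S2P (y axis) by the number of annotated exons (x axis), for protein-coding genes on the left and lncRNA genes on the right, with at least 50 mean counts. Bars span the middle 50% of genes in nonirradiated libraries, black lines mark their median, circles and squares the medians of pairs 1 and 2, and green lines the irradiated libraries. Medians of protein-coding genes lie at 0.31 for 1 exon and at -0.22 for over 40 exons.

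In protein-coding genes the pairs disagreed on gene length alone: the rho with length was -0.25 in pair 1 and 0.08 in pair 2. Within genes of 10 to 30 kb, the median log2FC was 0.09 for 1 to 5 exons, -0.07 for 6 to 20 exons and -0.22 for over 20 exons. Within genes of 30 to 100 kb the same classes had 0.06, -0.08 and -0.22. From 100 to 300 kb they had 0.01, -0.07 and -0.18. In genes of over 300 kb they lay closer together, at 0.03, -0.04 and -0.09. The classes kept their order at each of these lengths and were nearest to each other in the longest genes.

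The number of counts of a gene also moved with the result. The rho of log2FC with mean counts was -0.39, and the median log2FC was 0.07 in the 2832 protein-coding genes with the fewest counts and -0.14 in the 2830 with the most. Within the set with the most counts, genes of 1 to 5 exons had a median of 0.03, those of 6 to 20 exons -0.10 and those of over 20 exons -0.21. In this set 618 of 1030 genes of over 20 exons were nominally lower and 3 higher. The set with the fewest counts was the exception, since its 259 genes of over 20 exons had a median of 0.07, with 31 nominally higher and 9 lower.

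Long noncoding RNA genes were mostly on the S5P side. Of 5727 lncRNA genes tested, 923 were nominally higher and 88 lower, with a median log2FC of 0.29, whereas of 14661 protein-coding genes 867 were higher and 1870 lower, with a median of -0.03. Both S5P libraries lay above both S2P libraries for 37.3% of lncRNA genes, against 21.5% of all genes tested, and below both for 6.02%, against 18.1% of all. Many lncRNA genes had few counts, and among the 1746 with at least 50 the median was 0.12, with 363 nominally higher and 67 lower. Of the 8 tested markers of other lineages, which also had few counts, 5 lay above 0 in both pairs and 2 below. The 826 pseudogenes tested, with a median of 25.9 mean counts against 22.5 for lncRNA genes, had a median log2FC of -0.05. Among them 40 were nominally higher and 74 lower. The part of low counts in the lncRNA result was not tested. Exon number gave less of an order here than in protein-coding genes: across these 1746 genes the rho of log2FC was -0.27 with exon number, -0.31 with length (-0.33 in pair 1 and -0.19 in pair 2) and -0.42 with mean counts. With length and counts held fixed by ranks, the rho with exon number was -0.08. The medians were 0.03 for lncRNA genes of 6 to 10 exons and 0.07 for those of 11 to 20.

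In nonirradiated libraries the excess held for lncRNA genes of different position. Divergent transcripts, named -DT for the neighbour they run away from, had a median log2FC of 0.33, with 88 nominally higher and 3 lower of 430. Antisense genes, named -AS, had a median of 0.30, with 178 higher and 6 lower of 916. Intergenic LINC genes had a median of 0.26, with 128 higher and 21 lower of 864. These sets had no minimum of counts, and their median mean counts were 28.5 for -DT, 33.8 for -AS and 24 for LINC genes. In irradiated libraries the medians of log2FC were 0.21, 0.14 and 0.02 in the same order. There 50 LINC genes were nominally higher and 31 lower. The 97 lncRNA genes of 1 exon and at least 50 counts had a median of 0.43, with 48 higher and 1 lower. MALAT1, a nuclear-speckle lncRNA of 1 long exon, was an exception, with 4881 and 5953 CPM in S5P libraries against 6669 and 7532 CPM in S2P libraries (log2FC -0.39 ± 0.15 SE, adjusted p = 0.178 in edgeR, and -0.23 without S5P replicate 1).

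Replication-dependent histone genes had the highest median of the 21 gene lists. These genes have 1 exon, no poly(A) tail and a conserved stem-loop at the end of the mRNA that directs processing. Of 60 listed, 36 could be tested, 21 were nominally higher and none lower, and the median log2FC was 0.43. The tested genes had a median length of 502.5 bases, so the part of them that is counted lies near the start site. What this closeness adds to their log2FC was not tested. In both pairs 31 of the 36 lay above 0, as did 34.8% of all genes tested, and none lay below 0 in both. Both S5P libraries lay above both S2P libraries for 11 of the 36, against 21.5% of all genes tested. With the trend of log2 CPM on gene length removed from each library, the median of the list was 0.14. Their summed level was 730.2 and 998.9 CPM in S5P libraries, against 501 and 792 CPM in S2P libraries. S5P was above S2P within each replicate number, but S5P replicate 1 was below S2P replicate 2, since replicate 2 was the higher in both antibodies.

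H2BC21, which encodes an H2B histone, had 122 and 157 CPM in S5P libraries, against 66.6 and 108 CPM in S2P libraries (log2FC 0.70 ± 0.11 SE, adjusted p = 0.0534 in edgeR). H4C2, an H4 gene, had 19.4 and 26.2 CPM in S5P libraries against 11.3 and 17.2 CPM in S2P libraries (log2FC 0.69 ± 0.13, adjusted p = 0.0534 in edgeR). For both genes the S5P libraries lay above both S2P libraries. H2BC4 and H3C10 had log2FC values of 0.68 and 0.67. With the gene-length trend removed, H2BC21 had 0.45, H4C2 0.24 and H3C10 0.35. All 36 tested histone genes carry the stem-loop in an annotated GENCODE transcript, searched on the transcript strand by the histone stem-loop consensus, as do 7 of the 14625 other protein-coding genes tested (0.0479%). The stem-loops of the 2 genes are shown because they mark this class, with the consensus in capitals and 5 flanking bases on each side.
H2BC21 stem-loop: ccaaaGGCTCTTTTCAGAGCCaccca
H4C2 stem-loop: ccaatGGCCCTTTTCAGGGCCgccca

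Immediate early genes, which are switched on within minutes of a growth signal, lay on the S5P side as well. Of 34 listed, 28 were tested, 14 were nominally higher and none lower, and the median log2FC was 0.28. All 28 were above 0 in both pairs, against 34.8% of all genes tested, although their lowest fitted log2FC was 0.05. FOSB, a partner of JUN in the AP-1 factor, had 12.53 and 12.97 CPM in S5P libraries, against 6.995 and 7.998 CPM in S2P libraries (log2FC 0.77 ± 0.15 SE, adjusted p = 0.0534 in edgeR), with no overlap. IER2 had 53.3 and 75.9 CPM in S5P libraries against 32.5 and 62.4 CPM in S2P libraries, which overlap across replicates. FOS and JUN had log2FC values of 0.29 and 0.27, and MCL1, an inhibitor of cell death, 0.31. The median of the list was 0.14 with the gene-length trend removed and 0.18 without S2P replicate 1. Without S2P replicate 1 the log2FC was 0.20 for IER2, 0.09 for JUN and 0.18 for MCL1, and without S2P replicate 2 it was 0.80 for IER2 and 0.47 for JUN, while FOS had 0.09 with the length trend removed. IRF2BPL, a gene of 1 exon outside these lists, had 8.37 and 7.41 CPM in S5P libraries against 5.09 and 4.23 CPM in S2P libraries (log2FC 0.76) and was chosen after its values were seen. The same holds for JUN, and for AURKA, PRPF8, PRPF4B, RBM5, TPR, NUP107, DDB1, CIP2A, TEX14, RPL36A, SNHG32, HSPA8, H3C2, NFIB-AS1 and NFYC-AS1 below.

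Mitotic genes had the lowest median. Of 28 listed, 27 were tested, 20 were nominally lower and none higher, with a median log2FC of -0.28. Below 0 in both pairs were 26 of the 27, against 32.4% of all genes tested, and the other was AURKA, a spindle kinase, with a log2FC of 0.01 that was -0.02 with relative log expression factors. TOP2A, the topoisomerase that untangles chromosomes before they separate, has 35 exons. It had 347 and 420 CPM in S5P libraries, against 515 and 573 CPM in S2P libraries (log2FC -0.51 ± 0.09 SE, adjusted p = 0.0534 in edgeR). CENPE, a kinetochore motor with 49 exons, had 215.6 and 254 CPM in S5P libraries against 329 and 315 CPM in S2P libraries (log2FC -0.46 ± 0.11, adjusted p = 0.0659 in edgeR). In both genes the S5P libraries lay below both S2P libraries. KIF11 and TPX2, which build the spindle, had log2FC values of -0.38 and -0.38.

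The promoters of 1 gene from each side are shown because H2BC21 and TOP2A lie on opposite sides of the comparison while both hold the same 2 short motifs. Each is the 150 bases before the RefSeq start (GRCh38.p14), with TATAAA and CCAAT in capitals, the second also as ATTGG, its reading from the other strand. H2BC21 is at chr1:149886683-149886832 on the minus strand, and TOP2A at chr17:40417897-40418046 on the minus strand. A motif match is a description and not a binding site.
H2BC21 promoter: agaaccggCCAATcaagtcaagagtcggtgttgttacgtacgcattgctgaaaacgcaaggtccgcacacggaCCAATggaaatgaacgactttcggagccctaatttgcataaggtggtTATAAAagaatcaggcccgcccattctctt
TOP2A promoter: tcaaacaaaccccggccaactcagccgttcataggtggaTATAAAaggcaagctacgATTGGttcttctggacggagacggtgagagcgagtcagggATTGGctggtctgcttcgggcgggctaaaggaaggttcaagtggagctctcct

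In windows of 300 bases, from 250 before the start to 50 after it and on either strand, the motif TATAAA was present in 12% of 27305 RefSeq promoters, and the other motif in 35.7%. Of the 36 tested histone genes 33 had a window, and 75.8% of these held the TATA motif and 78.8% the CCAAT motif. Of the 27 tested mitotic genes 22 had a window, and 9.09% held the TATA motif and 77.3% the CCAAT motif. Not all protein-coding genes tested had a window, and among the 11523 windows found for them 6.22% held the TATA motif and 36.1% the CCAAT motif. Both lists, on opposite sides of the comparison, thus had the CCAAT motif above its share in all promoters and in those of tested genes. Histone genes had the TATA motif above both shares. The share of mitotic genes with it, 2 of 22, lay between those of tested genes and of all promoters.

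**Figure D2:**
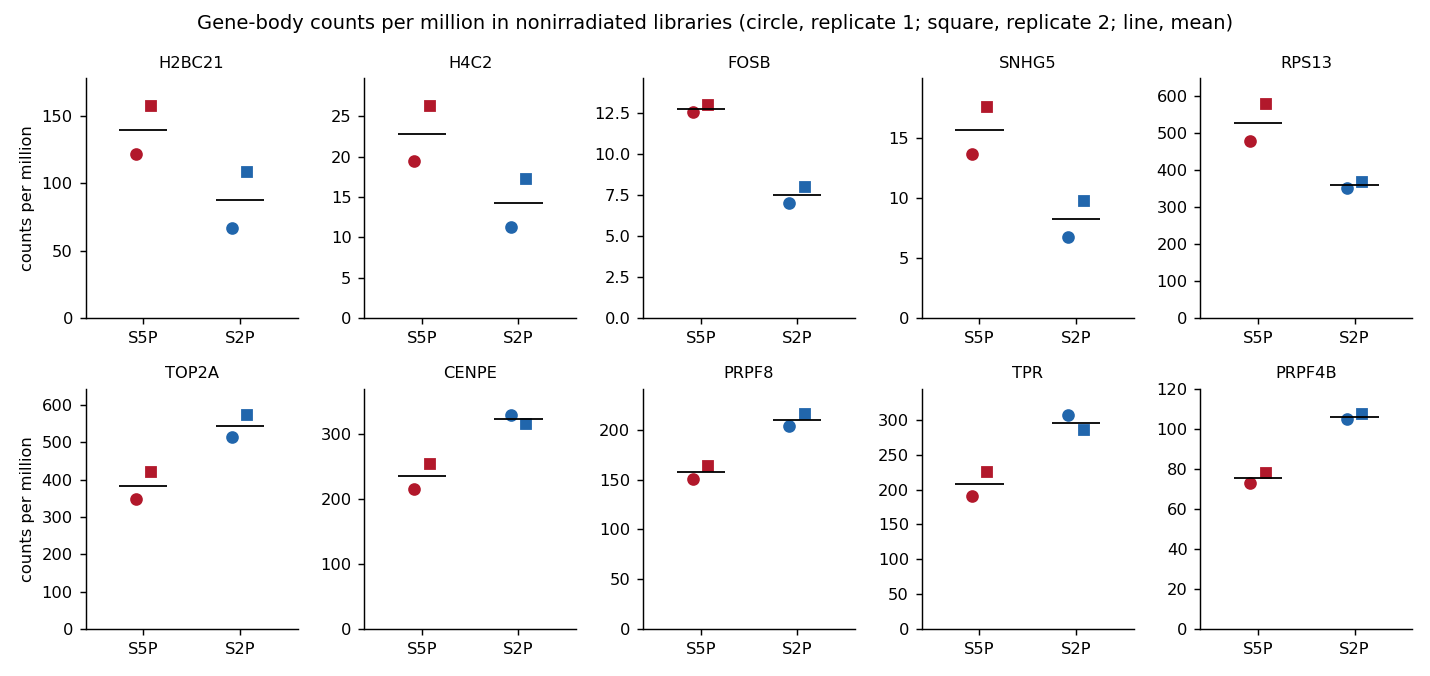
CPM (y axis, from 0) of 10 genes in the nonirradiated S5P and S2P libraries (x axis). Circles are replicate 1, squares replicate 2 and lines the mean of 2 libraries; in each panel both S5P libraries lie on 1 side of both S2P libraries, above in the upper row and below in the lower row.

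Several lists of the transcription and splicing machinery had medians on the S2P side, where 9.57% of all genes tested were nominally lower. That share was 16.2% in protein-coding genes of at least 50 counts, and 20.1% in those of 11 to 20 exons. In the 2830 protein-coding genes with the most counts it was 34.3%. Among the genes of pausing and elongation factors 13 of 28 tested were nominally lower and none higher, with a median log2FC of -0.17. NELFCD, a subunit of the pausing factor NELF, had 77.5 and 73.3 CPM in S5P libraries against 110 and 88.9 CPM in S2P libraries (log2FC -0.40). The elongation factor and histone chaperone SUPT6H had a log2FC of -0.32 and the FACT subunit SUPT16H -0.29. NELFCD had -0.20 without S2P replicate 1 and SUPT16H -0.18 without S5P replicate 1. These are differences in precipitated reads over the genes of these factors, and say nothing of the factors on chromatin.

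Of the 19 tested genes for cleavage, polyadenylation and termination 8 were nominally lower and none higher, with a median log2FC of -0.15. CPSF1, which is part of the poly(A) signal recognition complex, had a log2FC of -0.33, and INTS11, the nuclease of the Integrator complex, -0.37. Of 22 SR protein and CLK kinase genes 6 were nominally lower (27.3%) and none higher. Their median was -0.18, led by the splicing coactivator SRRM1 at -0.40. Among the 27 genes of CTD kinases and phosphatases 4 were nominally lower (14.8%) and none higher, CDK12 among them at -0.28, a share near the 12.8% of all protein-coding genes that were nominally lower. Under upper quartile scaling and when scaled by totals, which move the median of all genes to 0.09, the median was -0.10 and -0.09 for pausing and elongation, -0.08 and -0.07 for cleavage and termination, and -0.11 and -0.10 for the SR and CLK list, which had -0.09 without S2P replicate 1.

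PRPF8, the protein at the heart of the spliceosome, has 43 exons and had 150.4 and 164 CPM in S5P libraries against 203.7 and 215.6 CPM in S2P libraries (log2FC -0.42 ± 0.08 SE, adjusted p = 0.0534 in edgeR). PRPF4B, a kinase of splicing factors, had 73.2 and 78.1 CPM in S5P libraries against 105.2 and 107.4 CPM in S2P libraries (log2FC -0.49), with no overlap. RBM5, a regulator of alternative splicing, had a log2FC of -0.42.

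TPR, which forms the nuclear pore basket and has 51 exons, had 191 and 226 CPM in S5P libraries against 307 and 285 CPM in S2P libraries (log2FC -0.51 ± 0.10 SE, adjusted p = 0.0534 in edgeR). NUP107, a scaffold protein of the nuclear pore, had a log2FC of -0.41, DDB1, an adaptor of a ubiquitin ligase, -0.41, and CIP2A, an inhibitor of the phosphatase PP2A, -0.42.

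Not all lists of genes with many exons lay as far to the S2P side. Collagen genes had a median of -0.11, with 8 of 25 nominally lower and 1 higher, and COL12A1 with 66 exons had a log2FC of -0.28. The tested collagen genes have a median of 51 exons, and their median log2FC was nearer 0 than the -0.22 of genes of over 40 exons, at -0.05 with upper quartile factors, -0.04 with library totals and -0.08 without S5P replicate 1. The list for replication and G1/S had a median of -0.06, which was 0.01 under upper quartile scaling and 0.02 when scaled by totals. In it 5 of 27 genes were nominally lower (18.5%) and none higher. Of protein-coding genes with at least 50 counts 16.2% were nominally lower. POLE, the catalytic subunit of DNA polymerase epsilon with 49 exons, had a log2FC of -0.30. TEX14, a gene known for its role in germ cell bridges, went against the order: it has 32 exons and had 29.0 and 32.0 CPM in S5P libraries against 16.7 and 17.5 CPM in S2P libraries (log2FC 0.83 ± 0.16 SE, adjusted p = 0.0534 in edgeR).

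Genes of the translation machinery lay between these groups. Of 75 tested genes of cytosolic ribosomal proteins 21 were nominally higher and 2 lower, with a median log2FC of 0.09, which was -0.03 with the gene-length trend removed, 0.02 without genes that host snoRNAs, 0.00054 when S5P replicate 1 was left out and 0.19 when S5P replicate 2 was left out. RPS13 had 480 and 578 CPM in S5P libraries against 352 and 368 CPM in S2P libraries (log2FC 0.55 ± 0.11 SE, adjusted p = 0.0534 in edgeR), with no overlap. RPS3 had 1088 and 1201 CPM in S5P libraries against 739 and 843 CPM in S2P libraries (log2FC 0.53). RPL5 and RPL36A had log2FC values of 0.67 and 0.84. RPS13 had 0.34 with the gene-length trend removed and RPL5 0.45 without S2P replicate 1. FAU, a ribosomal protein made as a fusion to a ubiquitin-like protein, was on the other side, with 4.04 and 4.09 CPM in S5P libraries against 6.28 and 7.44 CPM in S2P libraries (log2FC -0.75 ± 0.19 SE, adjusted p = 0.0704 in edgeR) and no overlap. Its log2FC in irradiated libraries was -0.03.

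Of 25 tested snoRNA host genes, whose introns carry small nucleolar RNAs, 8 were nominally higher and 1 lower, with a median log2FC of 0.21. This median was 0.05 with the gene-length trend removed, and leaving out S5P replicate 1 gave 0.03 and leaving out S5P replicate 2 gave 0.35. The list is a part of the hosts. By annotation, 233 protein-coding genes of at least 50 counts host snoRNAs, and their median log2FC was -0.04. Of these 28 were nominally higher and 43 lower. The 36 lncRNA hosts of at least 50 counts had a median of 0.19, with 12 higher and 1 lower. SNHG5 had 13.7 and 17.6 CPM in S5P libraries against 6.76 and 9.78 CPM in S2P libraries (log2FC 0.93 ± 0.16 SE, adjusted p = 0.0534 in edgeR). SNHG8 had a log2FC of 0.43 and NCL, the gene of nucleolin, 0.41, whereas SNHG32 had -0.86 at 19 mean counts. The files give no positions within a gene, so reads of a snoRNA and reads of its host intron cannot be told apart in these counts.

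Heat shock and chaperone genes split in both directions, with 4 of 23 nominally higher and 8 lower. HSPA8, a constitutive HSP70 and snoRNA host, had 4502 and 6659 CPM in S5P libraries against 3454 and 4960 CPM in S2P libraries (log2FC 0.40), which overlap across replicates. HSP90AA1, a cytosolic HSP90, had a log2FC of -0.44 and HSPD1, the mitochondrial HSP60, -0.39. Few genes were nominal in 3 lists: p53 targets had 3 higher and none lower of 26, led by BBC3 at 0.50, mitochondrially encoded genes 1 higher of 13, and microRNA hosts 2 higher and 3 lower of 26.

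**Figure D3:**
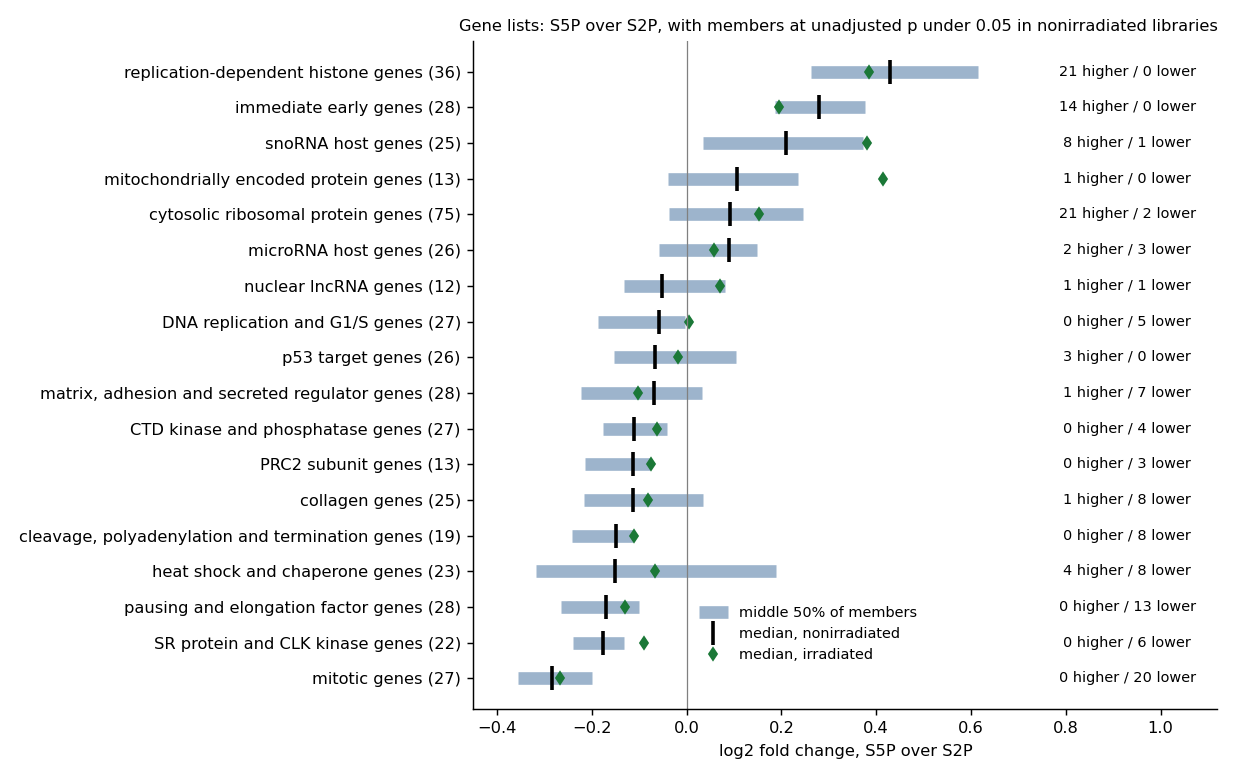
Log2FC of S5P over S2P (x axis) for 18 gene lists (y axis, tested members in brackets). Bars span the middle 50% of members and black ticks mark the median in nonirradiated libraries, diamonds the median in irradiated libraries, and the text gives nominal members; histone genes lie highest, at 0.43, and mitotic genes lowest, at -0.28.

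The genes that the study follows showed little difference. CDKN1A, the p53 target that arrests the cell cycle, had 53.03 and 62.7 CPM in S5P libraries against 39.8 and 61.4 CPM in S2P libraries (log2FC 0.21, adjusted p = 0.352 in edgeR), and the groups overlap. EZH2, the methyltransferase of PRC2, had 99.3 and 94.6 CPM in S5P libraries against 118 and 107 CPM in S2P libraries (log2FC -0.21, adjusted p = 0.166 in edgeR), with no overlap. ABL1, the kinase of CTD tyrosine 1, had a log2FC of -0.11 (adjusted p = 0.557 in edgeR). Of the 13 PRC2 subunit genes 3 were nominally lower (23.1%), MTF2 among them at -0.31, and none higher. Of protein-coding genes with at least 50 counts 16.2% were nominally lower. CDKN1A had a log2FC of -0.0079 without S2P replicate 1 and 0.45 without S2P replicate 2, EZH2 -0.12 in sequencing batch 1, and ABL1 -0.04 and -0.03 with upper quartile factors and library totals.

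Not every large value was shared by replicates. NFIB-AS1, an antisense lncRNA, had 71.0 CPM in S5P replicate 1 and 2.45 CPM in S5P replicate 2, against 1.71 and 1.99 CPM in S2P libraries, so its log2FC of 3.95 rests on 1 library and was 0.41 without it. NFYC-AS1, of 1 exon, had 10.5 and 9.10 CPM in S5P libraries against 5.33 and 5.30 CPM in S2P libraries (log2FC 0.89), similar in both pairs. RPS3, RPL5 and RPS13 had the opposite sign in irradiated libraries, with log2FC values of -0.17, -0.13 and -0.05 there, and the difference did not pass the test of the interaction.

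The irradiated S5P and S2P libraries are separate libraries and gave the same order of protein-coding genes by exon number. Of the 1835 genes nominally higher in nonirradiated libraries 75.7% also had a log2FC above 0 in irradiated libraries, against 53.3% of all genes tested, and 371 were nominally higher there, where 7.2% of all genes were. Of the 2034 nominally lower genes 92.4% were below 0, against 46.7% of all, and 828 were nominally lower there, where 6.73% of all genes were. The nominally higher genes had a median of 3 exons and the nominally lower ones of 18 exons. In irradiated libraries the rho with exon number was -0.46, the histone list had a median log2FC of 0.38 and the mitotic list of -0.27. All lncRNA genes tested had a median of 0.12 there, against 0.29 in nonirradiated libraries. Across 13393 genes of at least 50 counts, the fitted log2FC of irradiated and of nonirradiated libraries had a Pearson r of 0.49. The 2 nonirradiated pairs had an r of 0.53 with each other. Each fitted log2FC draws on 2 pairs, so the 2 values of r are unlike measures and do not rank the conditions against the replicates. Both are across genes and carry no p.

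In irradiated libraries edgeR called 6 genes higher (0.0282%) and 12 lower (0.0565%) at an absolute log2FC above 1 (1 and 0 without irradiated S2P replicate 1 or S5P replicate 1, 14 and 28 without S2P replicate 2, 3 and 9 without S5P replicate 2), and 23 higher (0.108%) and 26 lower (0.122%) at any fold. TOP2A was among the lower calls at any fold, with 312 and 377 CPM in irradiated S5P libraries against 519 and 507 CPM in irradiated S2P libraries (log2FC -0.58, adjusted p = 0.0115 in edgeR). H3C2, an H3 histone gene, was among the higher calls at any fold, with a log2FC of 0.53 in irradiated libraries (adjusted p = 0.0345 in edgeR) and of 0.27 in nonirradiated libraries (adjusted p = 0.184). A gene that passes in 1 condition and not in the other is not shown to differ. The test of the difference itself called 5 genes (0.0235%).

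**Figure D4:**
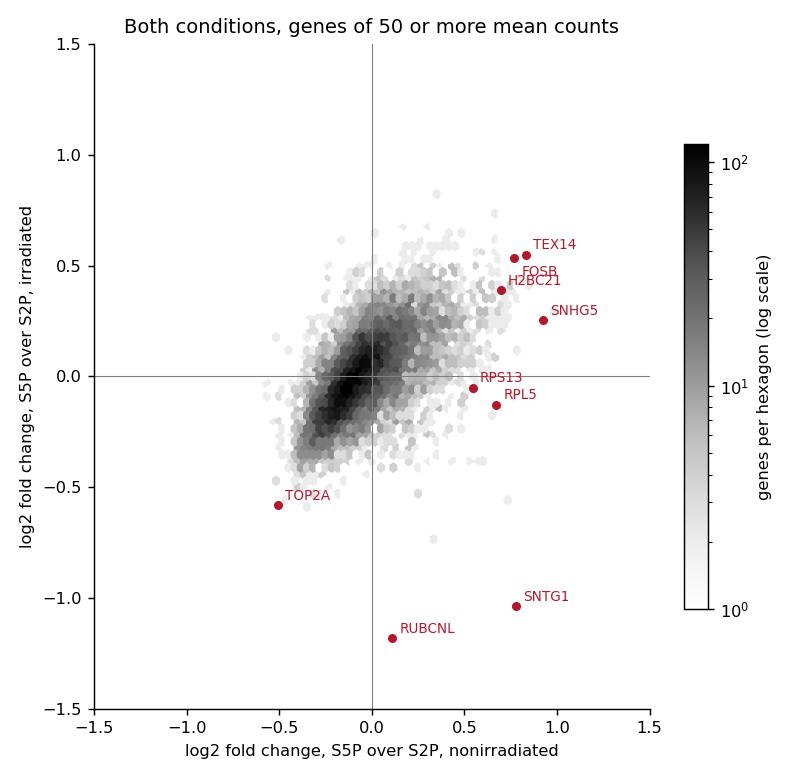
Log2FC of S5P over S2P in irradiated libraries (y axis) against that in nonirradiated libraries (x axis) for 13388 genes with at least 50 mean counts, with 5 more outside the axes. Shading counts genes on a log scale and named genes are red; TOP2A lies at -0.58 and -0.51, while SNTG1 and RUBCNL lie below 0 in irradiated libraries only.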

How the data were processed

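Nascent RNA of U2OS cells was measured by mNET-seq. Per the study's methods, the authors used cutadapt for adapters, STAR for alignment to hg38 and SAMtools to keep unique reads, removed internal priming and PCR duplicates, and deposited raw counts per gene body from featureCounts, which leaves out reads that overlap several genes, multimapping reads and reads on the opposite strand, so near-identical copies and overlapping genes are undercounted. The annotation release they counted on is not given in the sources used here. Of 55399 entries 1022 repeats with 0 counts were left out, and the 54377 genes were named and given exon numbers from GENCODE 44 by ID without version (120 not found, 0.0116% of the counts). All 24 columns were used.

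Runs were summed per replicate number. All 12 libraries entered 1 edgeR 4.0.16 quasi-likelihood fit in R 4.3.3 with filterByExpr, TMM factors, a term per group and the replicate number as a block shared by groups (5 residual and 16.1 prior degrees of freedom). P-values were adjusted by Benjamini-Hochberg over 21246 genes. Standard errors (SE) were taken as the absolute log2FC over the root of the F statistic. CPM use TMM-scaled totals, and values per pair use log2 CPM with a prior count of 2. The replicate differences of the 6 groups had a Pearson correlation of 0.319 to 0.668 over 15 pairs of groups, and the numbers come from the sample titles.

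Since no gene was called, the genes named are members of the lists with the smallest p (up to 4 a list), EZH2, ABL1 and CDKN1A, further list members, and genes said to be chosen after their values were seen. Members and lists were chosen with earlier results of these data known. DESeq2 1.42.0, other factors, filters, blocks, gene sets, thresholds, single sequencing batches and leaving out each library were tried. Promoters come from RefSeq. The result for 1 locus is not reported here.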

Additional observations from a re-analysis of the deposited data

Results flagged for a closer look

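For 5 genes the difference between S5P and S2P was not the same in irradiated and nonirradiated cells by edgeR's interaction test, and in all 5 the log2FC was lower in irradiated cells. TP63, a p53 family transcription factor of epithelia, had 5.68 and 2.56 CPM in irradiated S5P libraries against 27.5 and 6.30 CPM in irradiated S2P libraries, and 12.9 and 4.74 CPM in nonirradiated S5P libraries against 8.76 and 2.70 CPM in nonirradiated S2P libraries (difference of log2FC -2.56 ± 0.31 SE, adjusted p = 0.00101 in edgeR). RBM46, an RNA-binding protein gene of germ cells, differed by -3.19 (adjusted p = 0.0132), SNTG1 by -1.82 (adjusted p = 0.029), the lncRNA gene ZNF236-DT by -1.65 (adjusted p = 0.029) and RUBCNL by -1.29 (adjusted p = 0.0438), all in edgeR. Irradiated S2P replicate 1 was the highest of the 8 S5P and S2P libraries for each of these genes. Without it 1 gene was called, without irradiated S5P replicate 1 or without nonirradiated S2P replicate 1 none, and without irradiated S2P replicate 2 the count was 19. Without irradiated S5P replicate 2 it was 8, and without nonirradiated S5P replicate 1 it was 3.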

How the results depend on the processing

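Counts of called genes rested on the fit. Above the fold threshold, in nonirradiated cells 3 genes were higher with relative log expression factors, 3 with upper quartile factors, 3 without genes that host snoRNAs, 1 and 3 in sequencing batches 1 and 2 alone and 1 among protein-coding genes alone, with 0 lower in each. With the gene-length trend removed 2 were higher and 1 lower, with no filter on low counts 115 and 7, with nonirradiated libraries alone 151 and 6, with the 4 libraries alone 173 and 8, and with DESeq2 on the runs as 4 replicates 190 and 9. At any fold the counts of higher and lower genes were 17 and 21 with relative log expression factors, 22 and 2 with upper quartile factors, 5 and 6 without snoRNA hosts, 2 and 0 in batch 1, 11 and 5 in batch 2, 11 and 1 among protein-coding genes, 5 and 16 with the length trend removed, 356 and 305 with no filter, 693 and 780 with nonirradiated libraries, 813 and 642 with the 4 libraries and 1030 and 2293 with DESeq2 on the runs. Leaving out 1 library gave 0 to 17 higher genes (17 without S2P replicate 2, 6 without S5P replicate 2) and 0 lower. In irradiated cells the counts of higher and lower genes, 6 and 12, were 1 and 4 with library totals, 24 and 36 with no filter, 1 and 2 with a stricter filter, 0 and 0 with DESeq2 on the libraries, 16 and 16 with DESeq2 on the runs, 0 and 3 among protein-coding genes, 2 and 14 with the length trend removed, 23 and 26 at a log2FC threshold of 0.1, 0 and 0 with glmTreat, and 1 to 14 and 0 to 28 with 1 library left out. The 5 genes of the interaction were 10 with relative log expression factors, 1 with library totals, 116 with no filter, 1 with a stricter filter, 137 with DESeq2 on the runs, 3 in sequencing batch 1, 10 without snoRNA hosts, and 0 to 19 with 1 library left out. The causes were not tested.

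Without the replicate block, edgeR called 0 genes in nonirradiated cells (1109 nominally higher, 975 lower), 0 and 0 in irradiated cells and 0 in the interaction. With the replicate block within each antibody it called 0 and 0, 4 and 2, and 1.

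H3C2 turned to -0.15 with the length trend removed and CDKN1A ranged from -0.0079 (without S2P replicate 1) to 0.45 with 1 library left out. AURKA, at 0.01, was -0.017 with relative log expression factors and with DESeq2 on the libraries, -0.038 in sequencing batch 2, -0.014 without snoRNA hosts, -0.010 with the length trend removed, and -0.065 to 0.078 with 1 library left out. The rho with exon number was -0.49 to -0.40 over 22 fits, the histone median 0.14 (length trend removed) to 0.55 and the mitotic median -0.33 to -0.20. With 2 libraries a side, the median SE of a log2FC was 0.18, against a median absolute log2FC of 0.19.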
